A study of Mus musculus with 12 samples.

Results

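The 7 libraries described here are mouse hearts labelled aPD1_lef (4 libraries, replicates 1 to 4) and IgG_lef (3 libraries, replicates 1 to 3), out of 12 samples in the series. They were chosen by label: by those labels both groups carry leflunomide (lef) and only the antibody differs, an antibody against the immune checkpoint receptor PD-1 (aPD1) in the first group and an immunoglobulin control (IgG) in the second. The series title and design text concern protection by leflunomide from heart damage caused by anti-PD-1 in mice with melanoma. The sources used here give no strain, age, sex, dose or time of sampling, and do not say whether each animal carried a tumour. The IgG_lef sample numbered 4 had no column under its own name and was not analysed here. No group given IgG without leflunomide was analysed here, so a comparison of these 2 groups shows the antibody only in the presence of the drug. No label says that the libraries came from separate animals, so p-values measure the spread between these samples only.

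PD-1 is a brake on activated T cells, and blocking it can release immune attack on healthy tissue, the heart included. Interferon-gamma made by T and NK cells switches on guanylate-binding proteins, immunity-related GTPases, antigen presentation and PD-L1 (Cd274), the ligand of PD-1. Type I interferon acts through transcription factors that bind the interferon-stimulated response element (ISRE) in the promoters of antiviral genes. A strained adult heart typically makes natriuretic peptides and fetal contractile proteins, lays down matrix and lowers its use of fatty acids. Leflunomide inhibits dihydroorotate dehydrogenase (Dhodh), an enzyme of pyrimidine synthesis, and binds the aryl hydrocarbon receptor (Ahr).

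Values are taken as FPKM, fragments scaled to transcript length and sequencing depth. Their sum per library was 393494 to 413010 in aPD1_lef and 413628 to 440748 in IgG_lef, ranges that do not overlap (two-sided exact permutation p = 0.0571, the smallest that 4 against 3 libraries can give). The number of genes at 1 FPKM or more was 11536 to 11859 and 11455 to 11922. Heart muscle transcripts were abundant in every library, with cardiac actin (Actc1) at 2016 to 6264 FPKM. Replicate 4 of aPD1_lef stood apart. Its log2 values correlated with those of its group at r = 0.908 to 0.949 across genes, against 0.978 to 0.992 among replicates 1 to 3, where genes are not independent replicates. Atrial tissue was uneven: the atrial myosin light chain Myl7 read 266 FPKM in IgG_lef replicate 2, 32.5 and 43.0 in replicates 1 and 2 of aPD1_lef, and 1.78 or less in the other 4 libraries. In bulk tissue, fewer cells of a type and less RNA per cell cannot be told apart.

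Genes of matrix and of heart muscle stress were higher in aPD1_lef, and genes of the interferon response, fatty acid oxidation and the respiratory chain were lower. No single gene passed correction for the number of genes tested. Of 11969 genes tested with limma on log2(FPKM + 1), 0 had an adjusted p under 0.05, and the smallest adjusted p was 0.0589. At an unadjusted p under 0.05, 2675 genes differed, 1692 (14.1%) of them higher and 983 (8.21%) lower in aPD1_lef. Every aPD1_lef library lay above every IgG_lef library in 1866 genes, which is 15.6% of those tested, and below every one in 1342 genes, or 11.2%. The counts of calls differed between ways of fitting and between sets of libraries. When the 4 aPD1_veh libraries (anti-PD-1, with veh read as vehicle) also informed the spread, with the same genes and differences, 637 genes (5.32%) were higher and 234 (1.96%) lower at an adjusted p under 0.05. Without aPD1_lef replicate 4 the 6 remaining libraries gave 312 higher (2.61%) and 126 lower (1.05%), without aPD1_lef replicate 2 they gave 172 and 74, and without any of the other 5 libraries they gave 0. In what follows, "the fit of 11 libraries" is the first of these fits, and higher and lower describe values in aPD1_lef relative to IgG_lef. That fit assumes that aPD1_veh spreads as the compared groups do. The plan left aPD1_veh out because its spread was taken to differ. Adjusted p from the fit of 11 libraries is therefore no substitute for that of the compared groups alone. Adjusted p without aPD1_lef replicate 4 is given below only for genes that passed in that fit. Over 19 other ways of fitting, the highest adjusted p of these genes by limma was 0.335 (Cilp, Mmp2) to 0.451 (Sdha).

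**Figure D1:**
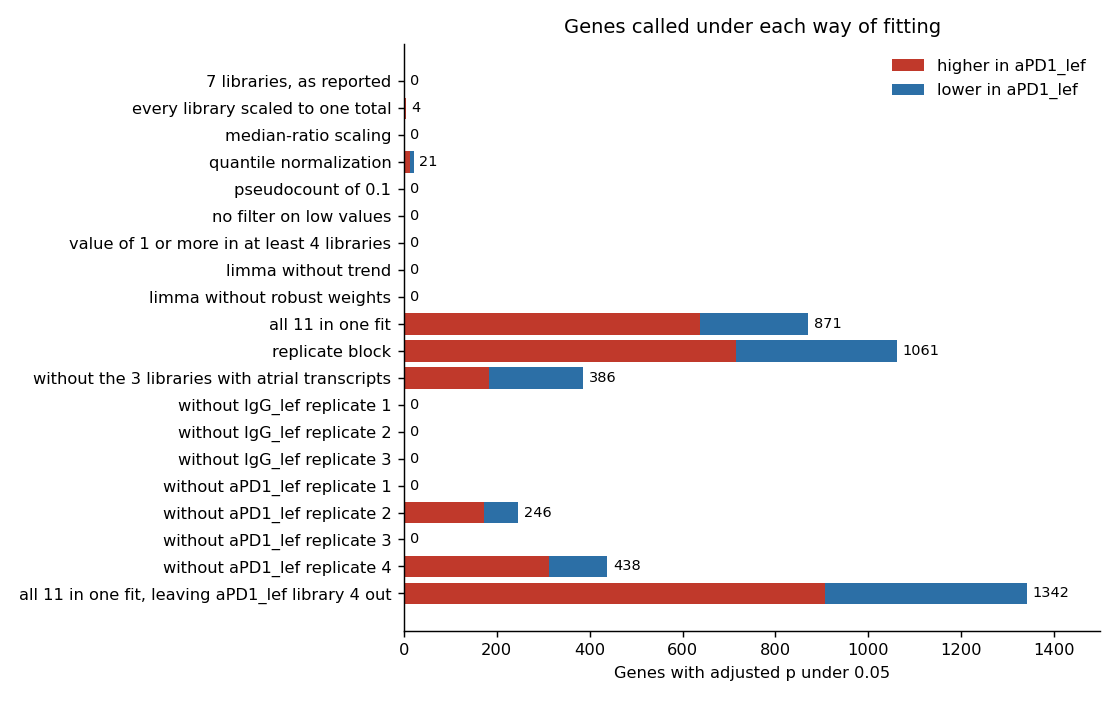
Number of genes with an adjusted p under 0.05 (x axis) under each way of fitting (y axis), split into genes higher and lower in aPD1_lef. The fit of the 7 libraries called 0 genes, the fit of 11 libraries called 871, and leaving out aPD1_lef replicate 4 called 438.

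Interferon response genes had lower values in aPD1_lef. Of 39 tested type I interferon antiviral genes, 23 lay below IgG_lef in every aPD1_lef library and none above, against 11.2% below among all genes. Their median log2 change was -0.84, against 0.04 over all genes tested. Of 21 tested interferon-gamma GTPases and chemokines, 16 lay below in every library, with a median of -1.42. None of these genes passed in the 7 libraries. In the fit of 11 libraries, 8 of the 39 and 10 of the 21 were lower and none was higher, where 1.96% of all genes were lower. Leaving out aPD1_lef replicate 4 instead called 0 of the 39 and 2 of the 21, where 1.05% of all genes were lower. Without IgG_lef replicate 3, in which these genes were highest, the medians were -0.62 and -1.15.

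Promoters of 3 of these genes are shown, chosen after their values were seen, because they carry the motif through which interferon acts. Each is a RefSeq window of 300 bases (GRCm38.p6), from 250 bases before the gene's start, written 5′ to 3′ on the gene's strand. Capitals mark matches to the ISRE core searched on either strand as GAAA, any 2 bases and GAAA again, where overlapping matches run together. The Ifit1 window is chr19:34640639-34640938 (plus strand), the Isg15 window chr4:156200769-156201068 (minus strand) and the Gbp3 window chr3:142559794-142560093 (plus strand).
Ifit1: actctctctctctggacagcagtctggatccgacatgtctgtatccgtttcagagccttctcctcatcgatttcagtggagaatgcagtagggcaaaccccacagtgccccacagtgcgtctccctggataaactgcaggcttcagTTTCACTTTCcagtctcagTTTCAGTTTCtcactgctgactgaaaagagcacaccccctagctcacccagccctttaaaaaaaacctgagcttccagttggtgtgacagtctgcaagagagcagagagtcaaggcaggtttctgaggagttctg
Isg15: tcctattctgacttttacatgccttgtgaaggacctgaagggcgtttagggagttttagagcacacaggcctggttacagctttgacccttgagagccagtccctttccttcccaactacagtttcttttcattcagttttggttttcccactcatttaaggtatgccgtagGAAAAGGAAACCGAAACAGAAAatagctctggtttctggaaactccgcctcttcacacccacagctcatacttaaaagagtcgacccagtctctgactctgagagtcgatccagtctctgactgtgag
Gbp3: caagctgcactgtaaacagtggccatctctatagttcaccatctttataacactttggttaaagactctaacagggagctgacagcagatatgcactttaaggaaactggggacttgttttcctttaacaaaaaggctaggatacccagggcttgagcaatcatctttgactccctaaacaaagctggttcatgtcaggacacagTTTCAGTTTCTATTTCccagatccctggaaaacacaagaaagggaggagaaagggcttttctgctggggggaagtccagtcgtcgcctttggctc
The Ifit1 window held 2 matches, beginning 104 and 85 bases before the start. In Isg15 they formed 1 run of 22 bases that began 78 bases before the start, and in Gbp3 1 run of 16 bases that began 45 bases before it. A second RefSeq start of Gbp3 had no match in its window, and neither did the windows of Cd274 and Irf7. Of the type I list, 16 of the 29 tested genes with a promoter in the table held a match (55.2%), and of the interferon-gamma list 11 of 14 (78.6%). Among all 27025 genes with a promoter there, 3.99% did. A match is a description of sequence and no evidence of binding in these hearts.

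Ifit1 (chromosome 19, 34640889 to 34650009), which binds viral RNA, was at 21.9, 14.9, 6.24 and 7.10 FPKM in aPD1_lef replicates 1 to 4 and at 56.1, 31.8 and 119 in IgG_lef replicates 1 to 3. The groups did not overlap, and IgG_lef replicate 3 was the highest. The log2 change was -2.33 ± 0.535 (SE; adjusted p = 0.105 by limma, and 0.0238 in the fit of 11 libraries). Isg15, an interferon-induced ubiquitin-like protein, was at 56.8, 39.3, 21.7 and 30.2 FPKM against 67.1, 74.2 and 126. Irf7, which amplifies the type I response, was the exception among these, since aPD1_lef replicate 4, at 57.0 FPKM, exceeded IgG_lef replicate 2, at 53.1. Ifit3 averaged 35.4 ± 16.3 (SD, n = 4) against 125 ± 78.9 FPKM (SD, n = 3), though its near-identical copy Ifit3b could share its reads.

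Guanylate-binding proteins and immunity-related GTPases attack the vacuoles of pathogens inside cells. Among them, Gbp4 was at 6.32, 7.32, 3.57 and 3.86 FPKM in aPD1_lef and at 19.1, 11.7 and 19.7 in IgG_lef. No values overlapped, and the log2 change was -1.52 ± 0.269 (SE; adjusted p = 0.0801 by limma, and 0.0211 with 11 libraries). Gbp3 was at 18.1, 18.3, 8.72 and 10.9 FPKM against 37.9, 28.5 and 48.7 (adjusted p = 0.0884 by limma, and 0.0211 with 11 libraries). Tgtp1 and Tgtp2, near-identical neighbours whose reads may be split, averaged 7.32 ± 3.85 against 26.7 ± 5.70 and 12.4 ± 6.16 against 42.5 ± 8.03 FPKM (SD, n = 4 and 3). Igtp, Iigp1, Gbp6 and Gbp10 were among the 8 largest decreases without overlap at an unadjusted p under 0.05 by limma, unnamed gene models skipped. Their log2 changes were -2.18, -2.13, -2.12 and -2.19, and their adjusted p by limma was 0.141, 0.132, 0.132 and 0.132. IgG_lef replicate 3 was the highest library in all 4, and Igtp reached 182 FPKM there against 45.0 and 24.7 in replicates 1 and 2. Without that library the log2 changes were -1.38 for Igtp, -1.39 for Iigp1, -1.54 for Gbp6 and -1.50 for Gbp10. Cxcl9, a chemokine that draws T cells, was at 2.61, 4.19, 1.26 and 2.13 FPKM against 7.48, 5.70 and 8.79, while values of Cxcl10 overlapped.

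Antigen presentation genes were lower by less. All 18 tested genes of MHC class I and the immunoproteasome had a negative log2 change, and in 9 of them every aPD1_lef library was below every IgG_lef library (11.2% of all genes). Their median was -0.54, and -0.33 without IgG_lef replicate 3. Psme2, a subunit of the interferon-inducible proteasome activator, was at 48.5, 39.2, 41.4 and 36.7 FPKM against 67.3, 65.8 and 82.6, and its partner Psme1 at 87.2, 98.2, 64.9 and 64.6 against 135, 131 and 134. These 2 passed in the fit of 11 libraries (adjusted p = 0.0221 for Psme2 and 0.0211 for Psme1 by limma), against 0.0796 and 0.0968 in the 7 libraries. With 11 libraries, 1.96% of all genes were lower. Psmb8, a catalytic immunoproteasome subunit, averaged 32.4 ± 3.48 against 53.8 ± 17.1 FPKM (SD, n = 4 and 3). The class I gene H2-Q6, which has near-identical relatives, had a log2 change of -0.54 (adjusted p = 0.139 by limma). These members were picked by smallest p. Values of H2-K1, H2-D1 and B2m from the same list overlapped, with log2 changes of -0.28, -0.11 and -0.26. All 7 tested genes of MHC class II presentation also had a negative log2 change, with a median of -0.53, or -0.27 without IgG_lef replicate 3, but the groups overlapped in every one. H2-Aa, an MHC class II chain, was at 68.0, 75.5, 58.7 and 54.5 FPKM against 116, 72.2 and 151 (adjusted p = 0.156 by limma). H2-Eb1, H2-Ab1 and the invariant chain Cd74 had log2 changes of -0.63, -0.53 and -0.54.

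Cd274 (chromosome 19, 29362107 to 29388095), the gene of PD-L1, was at 6.43, 6.31, 3.49 and 3.94 FPKM in aPD1_lef and at 16.1, 11.6 and 20.9 in IgG_lef. The lowest IgG_lef library was above the highest aPD1_lef library, and the ratio of means was 0.311. The log2 change was -1.51 ± 0.252 (SE; adjusted p = 0.0767 by limma, 0.0185 with 11 libraries and 0.0468 without aPD1_lef replicate 4). The other PD-1 ligand, Pdcd1lg2, was at 0.0564 FPKM or less and the receptor Pdcd1 at 0.445 or less in every library, so neither was tested. Of the wider family of B7 ligands and checkpoint receptors, 8 of 15 were tested. In every aPD1_lef library 2 lay above IgG_lef (15.6% of all genes) and 1, Cd274, below (11.2%), counts near those shares for so few genes. The 2 above were Cd276, at 3.45 to 6.00 against 1.29 to 2.89 FPKM, and Cd80, at 1.17 to 1.57 against 0.716 to 0.973. Their adjusted p by limma was 0.141 and 0.185. Cd80 passed the filter on low values only through aPD1_lef, since every IgG_lef value was under 1 FPKM. Among members under the filter, Ctla4 and Cd28 were lower and Icos higher in every aPD1_lef library.

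**Figure D2:**
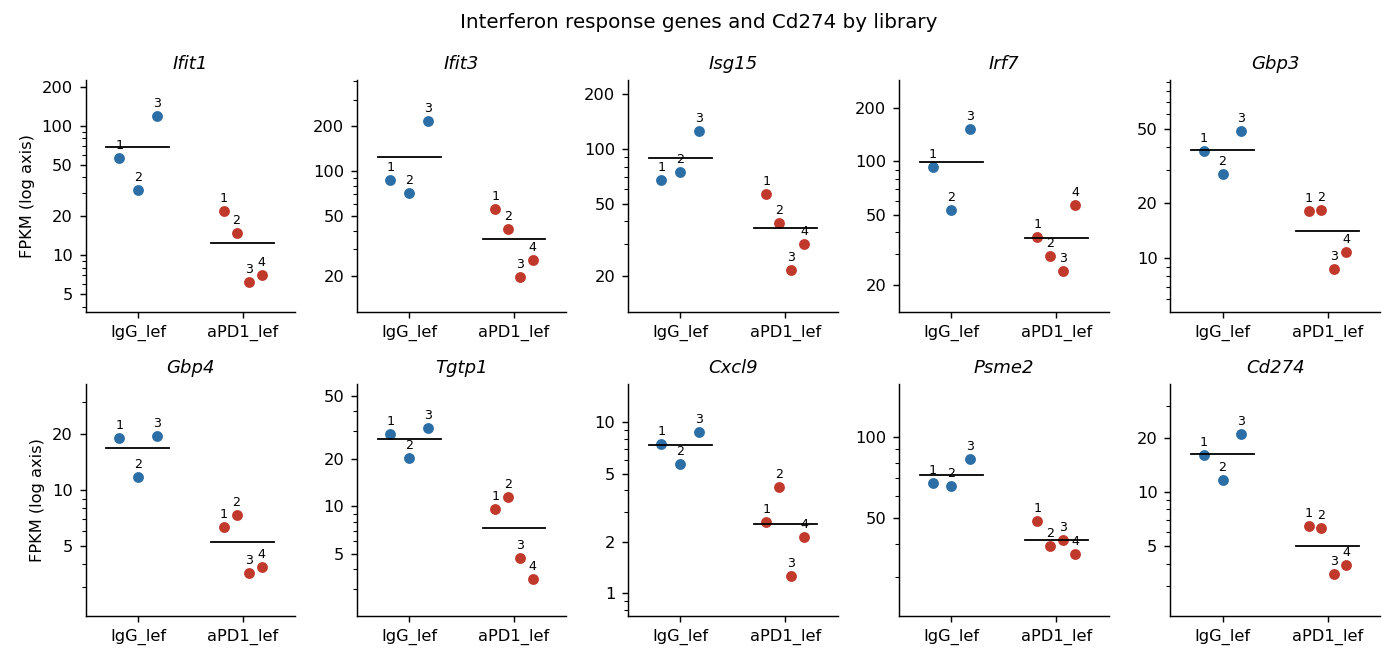
FPKM (log axis) of 10 genes, interferon response genes and Cd274, in each library, with replicate numbers beside the points and a line at each group mean. In 9 of the panels all 4 aPD1_lef libraries lie below all 3 IgG_lef libraries, and in Irf7 aPD1_lef replicate 4 overlaps.

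Markers of the immune cells that make or answer interferon overlapped between the groups. Summed over 20 marker genes of macrophages and monocytes, none of them at 0 in all libraries, the level was 605 to 1189.6 FPKM in aPD1_lef and 497 to 1302 in IgG_lef, and the groups overlapped in all 20 genes. IgG_lef replicate 3, the library with the highest interferon genes, also had the highest macrophage sum, and its part in the interferon result was not tested. The sum over 15 markers of T and NK cells was 4.76 to 11.4 FPKM in aPD1_lef and 3.62 to 12.2 in IgG_lef, and only the chemokine Ccl5 among them passed the filter on low values. Cd3e of the T cell receptor complex was at 0.271 FPKM or less and Cd8a of cytotoxic T cells at 0.228 or less in every library. Ifng, which encodes interferon-gamma, was listed at 0 in all 3 IgG_lef libraries and at 0.128 FPKM or less in aPD1_lef. Neutrophil markers summed to 3.13 to 5.57 FPKM in aPD1_lef replicates 1 to 3, to 53.6 in replicate 4 and to 3.42 to 16.0 in IgG_lef. B and plasma cell markers summed to 4.28 FPKM or less in each library.

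Heart muscle stress genes were higher in aPD1_lef. All 17 tested genes of cardiac stress and fetal expression had a positive log2 change, with a median of 1.21, or 0.93 without aPD1_lef replicate 4. In 8 of them every aPD1_lef library was above every IgG_lef library, where 15.6% of all genes were. The direction of some members rested on replicate 4 of aPD1_lef. Without it the ratio of means was 0.876 for Mt1, 0.87 for Atf3 and 0.95 for Hmox1, while the rest of the list stayed higher. Nppa (chromosome 4, 148000722 to 148002074), the natriuretic peptide released by stretched muscle, was at 4207, 2071, 5183 and 4866 FPKM in aPD1_lef and at 173, 757 and 781 in IgG_lef. The groups were far apart, with a ratio of means of 7.16 and a log2 change of 3.04 ± 0.581 (SE; adjusted p = 0.0856 by limma, and 0.0582 with 11 libraries). Atrial muscle makes Nppa in abundance. Replicates 3 and 4 of aPD1_lef had the highest Nppa, with Myl7 at 0.131 and 0.164 FPKM, and the part of atrial tissue in the Nppa difference was not tested. Nppb, the second natriuretic peptide, was at 937, 671, 1771 and 2085 FPKM against 343, 488 and 390 (adjusted p = 0.114 by limma).

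Rcan1, an inhibitor of calcineurin that calcineurin itself induces, was at 134, 63.8, 183 and 168 FPKM against 26.9, 36.8 and 41.8. Its log2 change was 1.85 ± 0.362 (SE; adjusted p = 0.0859 by limma, and 0.0211 with 11 libraries). Myh7, the slow isoform of myosin heavy chain that mice express before birth, was at 698, 297, 505 and 634 FPKM against 219, 199 and 242, with a log2 change of 1.21 ± 0.290 (SE; adjusted p = 0.109 by limma, and 0.0307 with 11 libraries). Its adult counterpart Myh6 was at 2095, 2795, 1370 and 244 FPKM against 2704, 3089 and 2971. Here the groups overlapped, and replicate 4 held the lowest value by a wide margin (adjusted p = 0.340 by limma). Acta1, skeletal actin that reappears under strain, was at 3640, 3729, 3710 and 2779 FPKM against 1966, 2351 and 1817, without overlap. The fit of 11 libraries called 5 of the 17 genes higher, against 5.32% of all genes, and leaving out aPD1_lef replicate 4 called 2, against 2.61%.

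Of 20 tested sarcomere and calcium handling genes, 18 had a negative log2 change, and 7 lay below IgG_lef in all aPD1_lef libraries (11.2% of all genes). The median was -0.40, and -0.26 without aPD1_lef replicate 4. Atp2a2, which pumps calcium back into the sarcoplasmic reticulum, was at 1614, 2304, 992 and 690 FPKM against 2484, 2691 and 2879. Its regulator Pln was at 1422, 1693, 941 and 479 FPKM against 2247, 2139 and 2267. Both were below in every library, by -1.08 ± 0.393 and -1.12 ± 0.409 on the log2 scale (SE; adjusted p = 0.177 and 0.18 by limma). The calcium channel Cacna1c and the release channel Ryr2 had log2 changes of -0.46 and -0.49, and values of Ryr2 overlapped. None of the 20 passed in the fit of 11 libraries, where 1.96% of all genes were lower. Without aPD1_lef replicate 4, 1 was called lower, against 1.05% of all genes.

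Matrix genes had the largest increases. All 33 tested genes of fibrosis and matrix had a positive log2 change, with a median of 2.00 against 0.04 over all genes. The median was 1.54 without aPD1_lef replicate 4 and 1.44 without IgG_lef replicate 1. In 24 of the 33 every aPD1_lef library was above every IgG_lef library, and in the fit of 11 libraries 23 were higher and none lower, against 15.6% and 5.32% of all genes. Leaving out aPD1_lef replicate 4 instead called 8 of the 33 higher, against 2.61% of all genes. Leaving out IgG_lef replicate 1, the lowest library in Thbs4, Cilp and Comp, called 0 of the 33 and 0 of all genes. The list was compiled with earlier results of these data known, so its direction is no independent evidence. Thbs4 (chromosome 13, 92751586 to 92794818), a matricellular thrombospondin, was at 150, 72.0, 172 and 306 FPKM against 4.26, 21.4 and 14.3. That is a ratio of means of 13.2, and 9.87 without replicate 4, with a log2 change of 3.68 ± 0.594 (SE; adjusted p = 0.0743 by limma, and 0.0132 with 11 libraries).

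Cilp (chromosome 9, 65265180 to 65280614), a matrix protein first described in cartilage, was at 171, 122, 243 and 273 FPKM against 14.5, 35.8 and 40.2. Its log2 change was 2.76 ± 0.402 (SE; adjusted p = 0.0724 by limma, 0.0188 with 11 libraries and 0.0468 without aPD1_lef replicate 4). Col12a1, a collagen that sits on fibril surfaces, was at 10.9, 4.57, 10.8 and 14.6 FPKM against 0.202, 1.53 and 1.17. The gelatinase Mmp2 (chromosome 8, 92827290 to 92853421) was at 98.9, 79.6, 72.8 and 88.9 FPKM against 30.3, 45.4 and 44.1, a narrow spread within aPD1_lef. Its ratio of means was 2.13, and its adjusted p by limma was 0.0743, 0.0101 with 11 libraries and 0.0410 without aPD1_lef replicate 4. Comp, an oligomeric matrix protein, was at 129, 80.1, 113 and 112 FPKM against 2.65, 32.3 and 7.78, without overlap.

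Other genes among the 8 largest increases without overlap at an unadjusted p under 0.05 by limma, unnamed gene models skipped, included Ltbp2, Ccn2, Thbs1 and Nmrk2. Ltbp2, of elastic fibres, averaged 76.0 ± 51.2 against 7.59 ± 5.02 FPKM and Ccn2, a matricellular growth factor, 495 ± 409 against 54.2 ± 12.0 (SD, n = 4 and 3). Thbs1, a thrombospondin that can activate TGF-beta, was at 37.3, 13.2, 32.6 and 195 FPKM against 1.38, 5.77 and 5.77. Replicate 4 was the highest, and the ratio of means went from 16.2 to 6.43 without it. Nmrk2, a kinase that makes NAD from nicotinamide riboside, was at 56.9, 8.53, 307 and 114 FPKM against 3.69, 4.86 and 5.60 (adjusted p = 0.134 by limma). Not every matrix gene separated: the fibrillar collagen Col3a1 was at 212, 196, 441 and 1168 FPKM against 43.1, 64.3 and 303, and IgG_lef replicate 3 was above aPD1_lef replicates 1 and 2. Ccn2 had a ratio of 9.13, or 5.59 without replicate 4.

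Fibroblast markers were uneven. Of 12 tested, 5 lay above IgG_lef in every library and 1 below, against 15.6% and 11.2% of all genes, with a median log2 change of 0.43. Summed over the 12, their level was 1861 to 2496 FPKM in aPD1_lef and 1419 to 1834 in IgG_lef, so the sums did not overlap, and the part of this difference in the matrix result was not tested. Pi16, an adventitial fibroblast marker, was at 132, 111, 132 and 129 FPKM against 30.7, 60.9 and 44.2. Scara5, a ferritin receptor of resident fibroblasts, went the other way, at 2.42, 3.54, 1.17 and 1.10 FPKM against 10.4, 7.19 and 8.83 (adjusted p = 0.0743 by limma, and 0.0211 with 11 libraries). Pdgfra, a general fibroblast receptor, was at 10.8 to 13.9 FPKM in replicates 1 to 3, at 30.5 in replicate 4 and at 9.53 to 12.9 in IgG_lef. Endothelial marker sums overlapped, at 704 to 878 and 627 to 762 FPKM, and those of mural cells did too, at 394 to 507 and 370 to 442. By gene, 4 of 12 endothelial and 4 of 9 mural cell markers lay above IgG_lef in every library, against 15.6% of all genes, and their part in the matrix result was not tested.

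**Figure D3:**
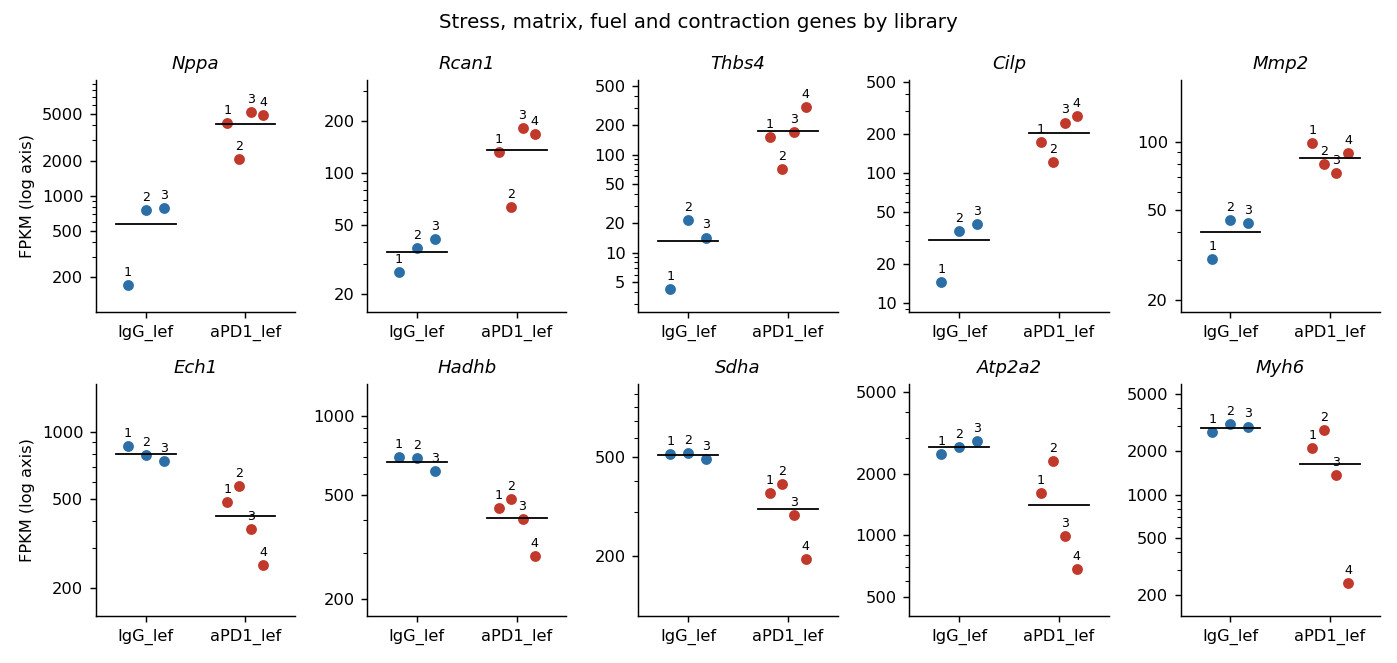
FPKM (log axis) of 5 stress and matrix genes (upper row) and 5 fuel and contraction genes (lower row) in each library, with replicate numbers beside the points and a line at each group mean. All panels but Myh6 show groups that do not overlap, and aPD1_lef replicate 4 is the lowest library in each lower panel.

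Genes of fatty acid oxidation were lower almost without exception. Of 26 tested, 24 lay below IgG_lef in every aPD1_lef library, against 11.2% of all genes, with a median log2 change of -0.75, or -0.54 without aPD1_lef replicate 4. The members outside this count were Acads, whose groups overlapped, and Cpt1a, the liver-type carnitine transferase, at 13.2 to 18.2 FPKM against 11.3 to 16.1. The fit of 11 libraries called 10 of the 26 lower, against 1.96% of all genes, and leaving out replicate 4 called 8, against 1.05%. Ech1 (chromosome 7, 28825338 to 28832239), which handles unsaturated fatty acids, was at 483, 571, 366 and 254 FPKM against 868, 791 and 742. Its log2 change was -0.996 ± 0.274 (SE; adjusted p = 0.126 by limma, 0.0373 with 11 libraries and 0.0473 without replicate 4). Hadhb (chromosome 5, 30155253 to 30184593), the thiolase subunit of the trifunctional protein, was at 447, 483, 404 and 293 FPKM against 701, 695 and 617, a ratio of means of 0.606. Ppargc1a, the coactivator of mitochondrial genes, was at 7.02, 7.26, 6.13 and 4.36 FPKM against 8.94, 10.8 and 10.7. The thiolase Acaa2 averaged 203 ± 82.2 against 431 ± 61.1 FPKM (SD, n = 4 and 3).

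The respiratory chain was lower by less. All 26 tested genes of oxidative phosphorylation had a negative log2 change, with a median of -0.57, or -0.39 without aPD1_lef replicate 4, and 21 of them did not overlap (11.2% of all genes lay below). Sdha of complex II (chromosome 13, 74322255 to 74350240) was at 359, 389, 293 and 194 FPKM against 515, 521 and 493, with a log2 change of -0.77 ± 0.241 (SE; adjusted p = 0.146 by limma, 0.0481 with 11 libraries and 0.0473 without replicate 4). Ndufs1 of complex I was at 173, 186, 137 and 93.1 FPKM against 249, 245 and 251, where the IgG_lef libraries were nearly equal. Sdhc of complex II averaged 235 ± 48.1 against 352 ± 12.5 FPKM and Ndufv1 of complex I 279 ± 57.2 against 404 ± 16.1 (SD, n = 4 and 3). In the fit of 11 libraries, Ndufs1, Sdha and Sdhc were the 3 genes of this list that passed, where 1.96% of all genes were lower. Leaving out aPD1_lef replicate 4 instead also called 3 of the 26 lower, against 1.05% of all genes.

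Among genes without overlap at an unadjusted p under 0.05 by limma, unnamed gene models skipped, the 2 largest decreases were in Inmt and Ces1d. Inmt, an amine N-methyltransferase, was at 3.90, 16.0, 1.02 and 0.953 FPKM against 43.6, 35.4 and 30.0, and Ces1d, a carboxylesterase that cleaves lipids, at 9.54, 17.3, 1.22 and 0.305 against 47.7, 34.3 and 37.8. In both, replicate 2 was nearest to IgG_lef, and adjusted p by limma was 0.105 and 0.132. The ephrin ligand Efnb3 was at 11.1, 16.7, 3.41 and 0.362 FPKM against 33.8, 33.8 and 19.2.

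Cyp1a1 (chromosome 9, 57687928 to 57703824), a cytochrome P450 that ligands of the aryl hydrocarbon receptor induce, was at 1.19, 0.865, 0.236 and 0.108 FPKM in aPD1_lef and at 3.64, 3.09 and 3.04 in IgG_lef. Every aPD1_lef library was below, and the log2 change was -1.47 ± 0.249 (SE; adjusted p = 0.0790 by limma, 0.0185 with 11 libraries and 0.0355 without replicate 4). Of the aPD1_lef libraries only replicate 1 reached 1 FPKM, so Cyp1a1 passed the filter on low values through IgG_lef. The receptor itself, Ahr, overlapped at 1.66 to 3.32 against 2.79 to 3.50 FPKM. Of the 8 tested genes of this list, 1 lay above and 2 below in every library, counts close to the shares over all genes (15.6% above and 11.2% below), and the median was 0.00235. Nqo1, a quinone reductase that the receptor also induces, was at 41.2 to 51.8 against 47.2 to 52.8 FPKM. Dhodh, the target of leflunomide, was at 5.88, 5.76, 4.82 and 3.17 FPKM against 6.26, 6.82 and 6.26, below in every library, with a log2 change of -0.36 ± 0.182 (SE; adjusted p = 0.277 by limma).

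The 4 libraries labelled aPD1_lef were graded in some lists and not in others. The median member of the matrix list stood 1.00, 1.64, 2.20 and 3.26 above the IgG_lef mean on the log2 scale in replicates 2, 1, 3 and 4, and that of the stress list 0.537, 0.953, 1.20 and 2.47 in the same order. Fatty acid oxidation stood at -0.325, -0.495, -0.757 and -1.35, again in that order. The interferon-gamma list differed, with -0.864, -1.07, -1.87 and -1.84, so that replicates 3 and 4 were close. Other lists broke the order. In replicates 2, 1, 3 and 4, type I interferon antiviral genes stood at -0.642, -0.434, -1.3 and -1.19. MHC class I and immunoproteasome genes stood at -0.412, -0.525, -0.67 and -0.507, and fibroblast markers at 0.472, 0.617, 0.456 and 0.368. Replicate 4 alone was far out in immediate early transcription factors, at 2.60 against 0.274 to 0.817 in the other 3. Hbb-bs, the beta globin of red cells, was at 1172 to 1353 FPKM in aPD1_lef and at 2452, 3962 and 849 in IgG_lef, which places aPD1_lef within the IgG_lef range.

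**Figure D4:**
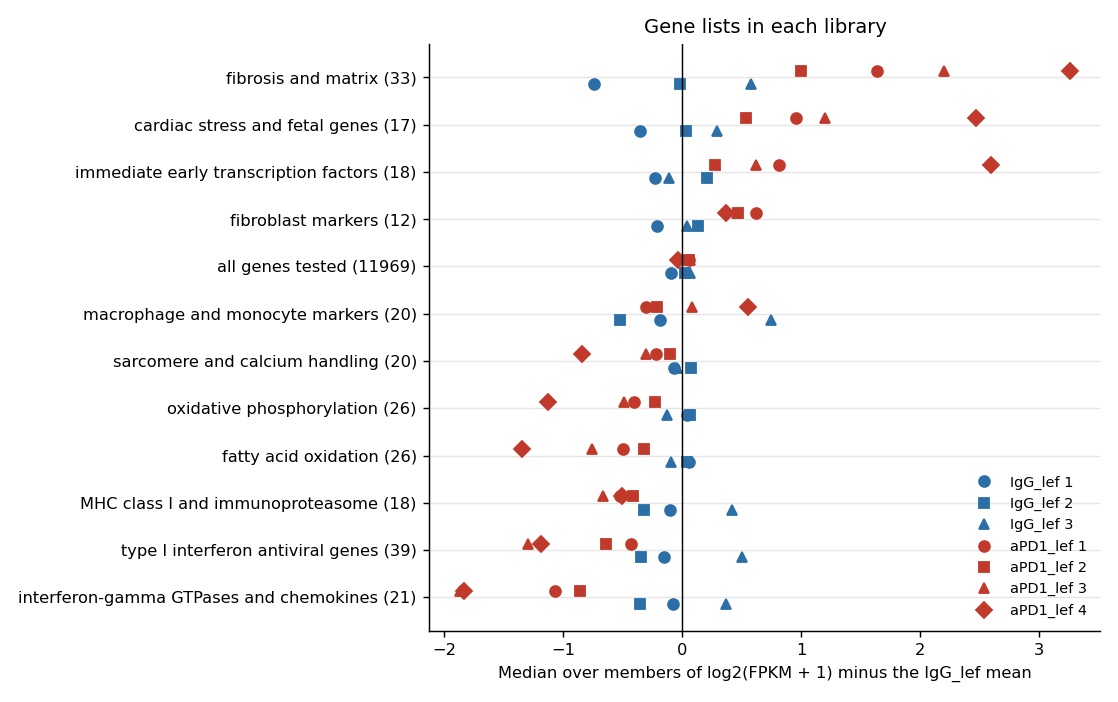
Median over the tested members of each list (number in brackets) of log2(FPKM + 1) minus the IgG_lef mean, 1 point per library. Matrix genes stand at 1.00 to 3.26 in aPD1_lef, fatty acid oxidation at -1.35 to -0.325, and macrophage markers overlap between the groups.

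**Figure D5:**
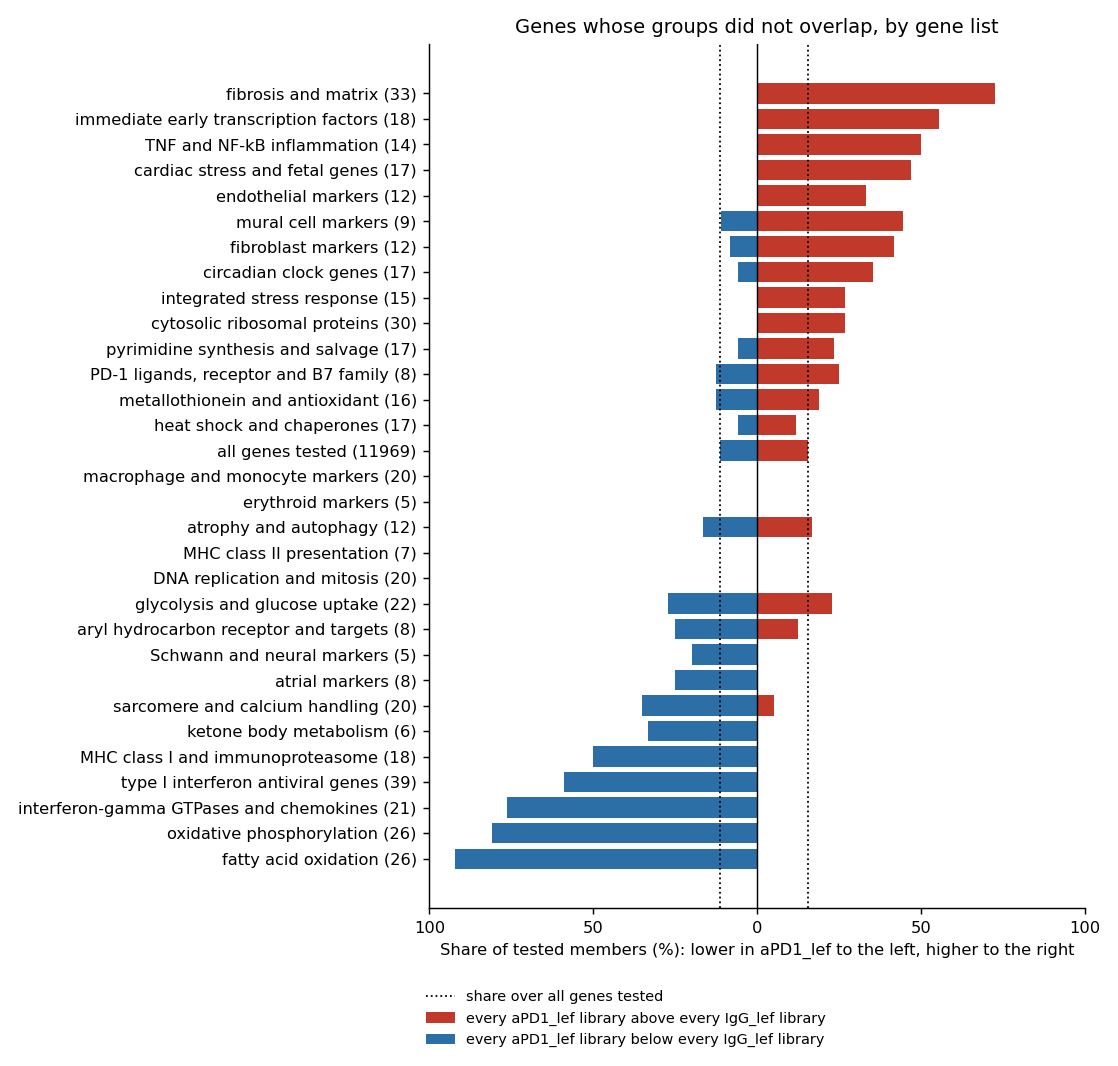
Share of the tested members of each list (number in brackets) in which every aPD1_lef library was above (right) or below (left) every IgG_lef library, with dotted lines at the shares over all genes tested, 15.6% and 11.2%. Fatty acid oxidation, with 24 of 26 below, and fibrosis and matrix, with 24 of 33 above, lie at the ends.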

How the data were processed

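RNA of mouse heart was sequenced from total RNA extracted with TRIzol, with NEBNext Ultra libraries, per the labels' protocols. The authors' deposited table has 34714 genes in rows and 12 libraries in columns. Of these, 11 columns carried the name in a sample's label, and 1 column matched none and was not used. No source states the unit. The authors' values were taken as FPKM, because they were not whole and their totals differed, and whether they are another normalized unit could not be tested. The table held 0 mitochondrially encoded genes. The submitters' processing notes name HISAT2, DESeq2 and mm10 but give no roles. No step turned the values into whole reads. Low values of genes with a single transcript were multiplied by exon length and divided by the best of many steps per library. Of the results, 14.8% to 18.3% lay within 0.05 of a whole number, against 10% by chance for a fixed step. The chance share for a best step is higher and was not computed. Depth is unknown because whole reads were not recovered, and intervals that need it are left out.

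Genes at 1 FPKM or more in at least 3 of the 7 libraries were tested on log2(FPKM + 1), a scale that understates changes of low genes. limma 3.58.1 (trend and robust, statmod 1.5.0, R 4.3.3) compared the groups with a threshold of 0.05 on Benjamini-Hochberg adjusted p over all 11969 genes, and was tested on simulated data. Other steps used SciPy 1.17.1, pandas 2.3.3 and matplotlib 3.10.9 under Python 3.11.15. Coordinates and promoters are RefSeq's for GRCm38.p6.

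Members and gene lists were chosen with earlier results of these data known. Lists are described by counts and medians, without a set test. Genes were named as follows: the 8 largest increases and 8 largest decreases without overlap at an unadjusted p under 0.05 (since none passed correction), up to 4 genes of each of 9 lists by smallest p, and 18 genes fixed by name. Unnamed gene models were skipped in the first of these. Actc1, Acta1, Cxcl9, Cxcl10, Col3a1, Cpt1a, Acads, Nqo1, Pi16, Scara5, Pdgfra, Cd276, Cd80 and Ccl5 are list members named after their values were seen. So are Mt1, Atf3, Hmox1, H2-K1, H2-D1, B2m, Ctla4, Cd28 and Icos. The rule for printing promoters named no list, since no gene passed, and the interferon genes were chosen in its place. Some genes that the rules named are not reported here.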

Additional observations from a re-analysis of the deposited data

Results flagged for a closer look

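Among 66 sets of 4 aPD1_lef values examined (63 named genes and 3 measures of the libraries), 2 had a library whose distance from its nearest neighbour was a larger part of the range than Dixon's 95% limit for 4 samples, and chance gives about 1 in 20. Both were in aPD1_lef replicate 4. Thbs1, a thrombospondin, stood at 195.2 FPKM there, against 13.2 to 37.3 in replicates 1 to 3. S100a8, an alarmin abundant in neutrophils, stood at 19.11 FPKM, against 0.935 to 2.18 in replicates 1 to 3 and 0.701, 2.29 and 4.99 in IgG_lef. Neutrophil markers summed to 53.6 FPKM in that library, and their part in these values was not tested.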

How the results depend on the processing

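With the 7 libraries, 0 genes were called by limma, and 0 remained without the filter on low values, with a filter of 4 libraries, with a pseudocount of 0.1, with median-ratio scaling, and without trend or robust weights. Scaling every library to one total called 4 genes, all 4 higher, and quantile normalization called 21, with 13 higher and 8 lower. The fit of 11 libraries called 871 (637 higher and 234 lower), and that fit leaving out aPD1_lef replicate 4, which was added after seeing the data, 1342 (907 and 435). Leaving out 1 library at a time gave 0 to 438 genes, 0 to 312 higher and 0 to 126 lower. Without the 3 libraries with atrial transcripts, 2 against 2 libraries gave 386 (184 higher and 202 lower). The replicate block called 1061 genes (715 higher and 346 lower), but same-numbered libraries shared only a number. Their deviations from the group means correlated at 0.115, 0.201 and 0.0135, and no library correlated best with its own number. Replicate 4 of aPD1_lef has no partner, so that the block leaves it out of the estimate. The cause of these differences in count was not tested. Of the 58 named genes tested, 33 passed in the fit of 11 libraries, 25 without the atrial libraries, 19 without aPD1_lef replicate 2, 14 without aPD1_lef replicate 4, 12 with the block and 1 with quantile normalization. Over all 11969 genes these settings called 871, 386, 246, 438, 1061 and 21, in that order. Most of the 58 were picked by size of change or small p in these same libraries. Their passing and steady direction are therefore no independent support. Of these 58, only Myl7 and S100a8, which passed in none of these settings, changed direction. The log2 change of Myl7 was -0.77, ranged from -2.04 (without IgG_lef replicate 1) to 1.51 (without IgG_lef replicate 2) when 1 library was left out, and was 0.08 without aPD1_lef replicate 3 and 0.0699 without aPD1_lef replicate 4, with the block or with 11 libraries less that one. That of S100a8 was 0.41, ranged from -0.33 (without aPD1_lef replicate 4) to 0.86 (without IgG_lef replicate 3), and was -0.05 without IgG_lef replicate 1 and -0.33 with the block or with 11 libraries less that one.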

Other observations

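The genes with the smallest adjusted p in the 7 libraries (0.0589 by limma, in 6 genes) were not among those named by rule, and are given here after their values were seen. Of these, 5 were higher in every aPD1_lef library. Mfap4, a microfibril-associated glycoprotein, was at 100.7, 95.7, 97.6 and 114.5 FPKM against 21.6, 32.0 and 32.8, and the collagen Col8a2 at 6.96, 5.91, 7.64 and 9.50 against 0.344, 1.36 and 1.14. Adamtsl2, a microfibril-binding protein, averaged 29.6 ± 4.27 against 8.23 ± 2.33 FPKM (SD, n = 4 and 3), Ldlrad4, an inhibitor of TGF-beta signalling, 7.97 ± 0.587 against 3.88 ± 0.261, and Fxyd6, a regulator of the sodium pump, 56.9 ± 7.29 against 24.1 ± 2.51. Xdh, which makes uric acid, was lower, at 33.4, 38.6, 33.6 and 32.6 FPKM against 65.7, 63.4 and 73.8. Each of the 6 passed in the fit of 11 libraries, with an adjusted p by limma of 0.00334 to 0.0211.

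Of 17 tested pyrimidine genes, 12 overlapped between the groups. Values of 4 were higher in every aPD1_lef library, a share little above the 15.6% of all genes. These 4 passed in the fit of 11 libraries, where 5.32% of all genes were higher. Without aPD1_lef replicate 4, 2 of the 17 passed, against 2.61% of all genes. Uck2, which salvages uridine and cytidine, was at 50.7, 30.8, 105 and 179 FPKM against 17.5, 19.4 and 24.6, with a log2 change of 1.81 ± 0.544 (SE; adjusted p = 0.14 by limma, and 0.0461 with 11 libraries). Upp1, a uridine phosphorylase, was at 8.82, 6.98, 8.21 and 15.7 FPKM against 3.02, 4.96 and 4.48. The cytidine deaminase Cda was at 2.86 to 3.94 against 1.54 to 1.92 FPKM, and Cad, which begins pyrimidine synthesis, at 3.29 to 3.46 against 2.31 to 2.68. Immediate early transcription factors were above in every library in 10 of 18 tested genes, against 15.6% of all genes. Their median log2 change was 0.91, and 0.57 without aPD1_lef replicate 4. Egr1 was at 24.9, 7.03, 8.56 and 108 FPKM against 2.98, 6.10 and 3.65. Replicate 4 of aPD1_lef was the highest in Egr1, in Junb, at 164 against 15.5 to 29.0 in replicates 1 to 3, and in the clock gene Arntl, which was under the filter and not tested, at 8.89 against 0.783 to 1.52. Proliferation genes overlapped between the groups in all 20 tested, and 20 of 20 had a positive log2 change, with a median of 0.50.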
